A study of Mus musculus with 21 samples.

Results

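The genes described here are 37 mouse genes of the lysosome, namely its luminal proteases, glycosidases and lipid-handling proteins, its membrane proteins, its proton pump and a pair of regulators. They were listed by name, out of 19937 genes that had a probe set annotated to them alone. Each of the 37 had exactly 1 such probe set. A gene was tested if its log2 value reached 5 on at least 3 of the 21 arrays, which 36 of the 37 did. Of these, 34 were at 5 or above on all arrays and the other 2, Gla and Ctsk, reached 5 on at least 1 array of each of the 6 groups. Both lay near that limit, so that their values sit close to the low end of what was tested. Atp6v0d2, a subunit of the proton pump known from osteoclasts and macrophages, lay at 2.23 to 2.88 on all arrays and was not tested.

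Total RNA from left ventricle of mice aged 9 to 13 weeks was hybridised to Affymetrix arrays, and the deposited values are log2 expression values made by RMA. Mice carrying Tg(αMHC-MerCreMer), in which a cardiomyocyte promoter drives a tamoxifen-inducible Cre recombinase, received intraperitoneal tamoxifen at 40 mg/kg on 4 consecutive days (3 arrays), 4 control injections (3 arrays), 1 tamoxifen injection (3 arrays) or 1 control injection (3 arrays). In wild-type mice there were 3 arrays after 4 tamoxifen injections and 6 arrays after 4 control injections. No floxed allele is named in the labels of any group, and in all groups tissue was collected 4 days after injections ended. Replicate 1 was male and replicates 2 and 3 were female in every group of 3, while the wild-type controls comprised both sexes equally, 3 and 3. Nothing in the labels says that replicates were separate animals, so that p-values measure the spread between these samples. The cardiomyocyte markers were present, with 15 of 15 passing the same limit and a summed level of 15.69 to 16.13 on the log2 scale in the MerCreMer groups given 4 injections.

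Lysosomes are acid compartments in which hydrolases break down proteins, glycans and lipids delivered by endocytosis, phagocytosis and autophagy. Their lumen is acidified by the vacuolar proton pump, and many of their genes carry a short palindromic element, CACGTG with preferred flanking letters, which TFEB and its relatives TFE3 and MITF bind. Cardiomyocytes rely on lysosomes for the turnover of mitochondria and glycogen, and inherited loss of several of these proteins in humans, among them GLA, GAA and LAMP2, causes cardiomyopathy. Macrophages are rich in the same hydrolases.

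The arrays differed in ways that bear on all results below. The 3 arrays of MerCreMer mice given 4 tamoxifen injections differed more from each other than those of any other group, with a residual variance of 0.106 against 0.0153 to 0.0221 in the other groups. Their correlations with each other were 0.9182 to 0.9742, where the lowest value in any other group was 0.9824. Also, the arrays fell into 2 sets by the level of 1 probe set that has no gene annotation, a grouping inferred from the data and not given in the labels. In MerCreMer mice, replicate 1 of both control groups and replicate 2 of both tamoxifen groups shared the low level of all 9 wild-type arrays, and the other 8 were high. Of 15593 probe sets with a mean of at least 5, 141 (0.904%) separated these MerCreMer sets without overlap. The share that other splits of the same size would separate was not worked out, so the sets remain an inference.

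After 4 tamoxifen injections in MerCreMer ventricles 13 lysosomal genes rose and 1 fell, out of 36 tested. The proteases Ctsz, Ctsc, Lgmn, Ctsb and Ctsl, the glycosidases Gla and Gusb, the lipid-handling genes Lipa, Asah1 and Npc2, the proton pump subunits Atp6v1h and Atp6v1a, and progranulin (Grn) were higher than after 4 control injections, and cathepsin F (Ctsf) was lower. None of the 4 membrane proteins passed the threshold, an adjusted p under 0.05 over all 11384 genes tested, though 3 of them were at an unadjusted p under 0.05. Macrophage markers rose in the same comparison, 15 of the 17 tested being called, and their values are given with the arrays further on. The 14 genes called are 38.9% of those tested, against a background of 23.3% of all genes. The 13 higher genes are 36.1% against a background of 13.9%, and the 1 lower gene is 2.78% against a background of 9.41%. The median change was 0.222 on the log2 scale, against 0.014 over all genes, and 24 of 36 (66.7%) lay above 0, against 52.5% of all genes. That median was 0.095 with array weights and 0.122 with female arrays alone. For 15 of the 36 (41.7%) the 3 tamoxifen arrays did not overlap the 3 control arrays, against a background of 27.9%. For 8 of the 36 (22.2%), 7 above and 1 below, the tamoxifen arrays lay outside the range of all other 18 arrays of the series, against a background of 11.5%. These 8 were Grn, Lgmn, Ctsz, Ctsl, Lipa, Atp6v1h, Atp6v1a and, below the range, Ctsf.

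The count rests on a spread shared by all 21 arrays. With each group weighted by its own variance 7 genes were called (Ctsc, Ctsz, Lgmn, Gla, Gusb and Grn higher, Ctsf lower, with 8.42% of all genes called), and with the spread taken from the 6 arrays compared alone 0 were called (9 were at an unadjusted p under 0.05), the smallest adjusted p being 0.179 for Gla and the background 0.158%.

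**Figure D1:**
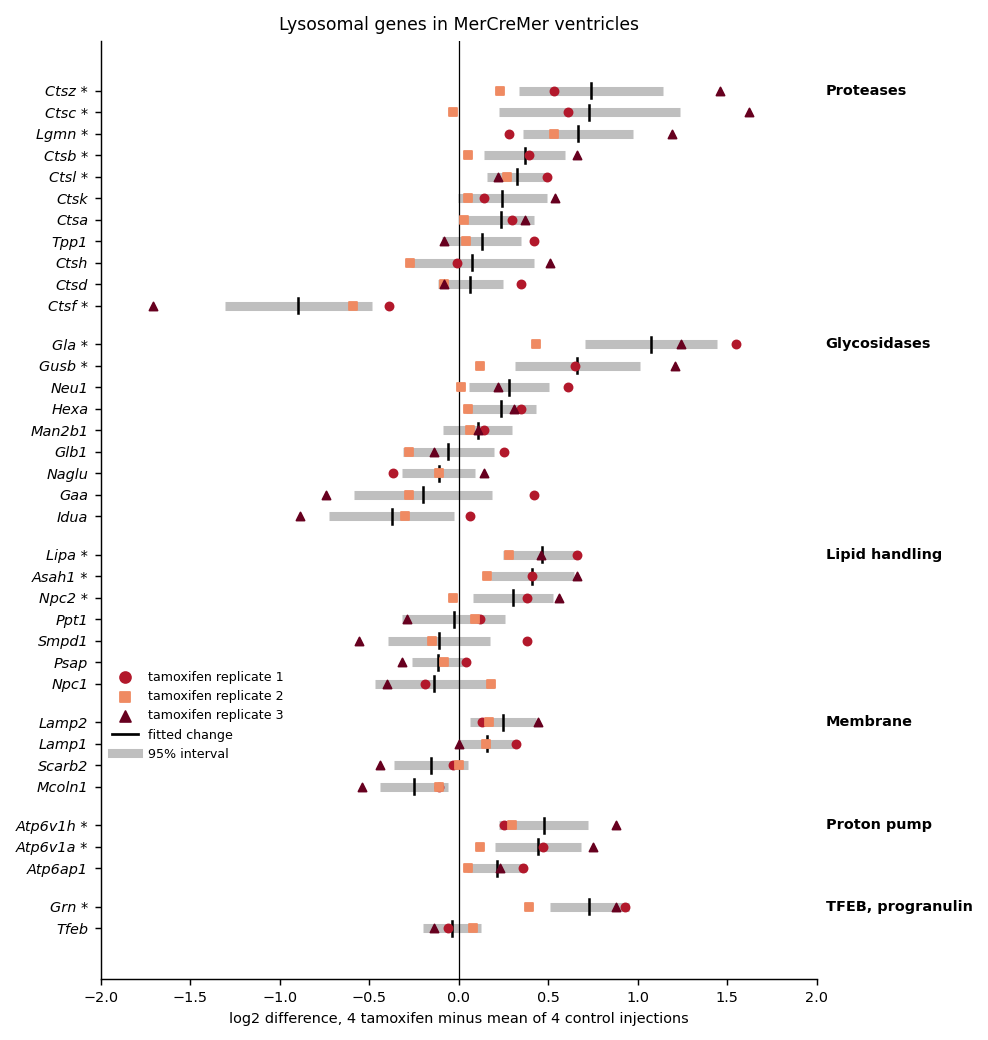
Log2 difference of each tamoxifen array (points) from the mean of the 3 control arrays for the 36 lysosomal genes tested in MerCreMer ventricles given 4 injections, by role, with the fitted change (black line) and its 95% interval (grey); asterisks mark the 14 genes called. Replicate 3 gave the extreme values of Ctsc (1.62) and Ctsf (-1.71), and replicate 2 lay nearest to 0 for 25 of the 36 genes.

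Promoters were examined because the element named above is known from many lysosomal genes. RefSeq promoters of assembly GRCm38.p6, 250 bases before to 50 after a start site, were matched for 31 of the 37 genes (36 promoters). CACGTG was present in 12 of the 36 (33.3%), against 7.15% of 32851 promoters of the same length genome-wide. TCACGTGA, the same core with both preferred flanking letters, was present in 5 of the 36 (13.9%), against 0.974% of all promoters. Both strings are palindromes and read the same on either strand, and each TCACGTGA holds a CACGTG. Promoters of the genes called higher held CACGTG in 4 of 11 (36.4%) and those of the other genes in 8 of 25 (32.0%). Shown are the 4 matches among genes called higher (Gla, Atp6v1a, Lgmn and Ctsl), the gene called lower (Ctsf) and the 3 genes not called that hold the flanked form (Ctsa, Ctsd and Mcoln1), each 5′ to 3′ on the gene's strand with the match in capitals.
Gla, chrX:134601173-134601253, minus strand: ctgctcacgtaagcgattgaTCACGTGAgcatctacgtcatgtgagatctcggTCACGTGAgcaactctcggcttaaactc
Atp6v1a, chr16:44139364-44139411, minus strand: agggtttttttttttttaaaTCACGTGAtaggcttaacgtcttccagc
Lgmn, chr12:102439115-102439162, minus strand: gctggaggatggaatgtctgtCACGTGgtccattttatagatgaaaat
Ctsl, chr13:64370730-64370770, minus strand: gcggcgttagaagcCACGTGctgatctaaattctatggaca
Ctsf, chr19:4855065-4855112, plus strand: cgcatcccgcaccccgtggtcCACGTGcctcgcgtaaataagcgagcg
Ctsa, chr2:164833740-164833797, plus strand: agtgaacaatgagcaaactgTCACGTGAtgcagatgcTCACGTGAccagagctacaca
Ctsd, chr7:142387899-142387946, minus strand: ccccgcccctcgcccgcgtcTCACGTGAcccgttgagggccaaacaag
Mcoln1, chr8:3500427-3500500, plus strand: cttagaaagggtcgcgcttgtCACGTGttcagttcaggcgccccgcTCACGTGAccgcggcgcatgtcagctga
The first core of Gla lay 227 bases and the second 194 bases before the start, and those of Lgmn and Ctsf lay 49 and 79 bases before it. Of the 5 genes that hold the flanked form Gla and Atp6v1a were called higher, and the other 3 were not called. The log2 change was 0.233 for Ctsa (SE 0.0880), 0.065 for Ctsd (SE 0.0863) and -0.250 for Mcoln1 (SE 0.0908). A match is a description of the letters in these windows and not evidence of binding.

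Among the 11 proteases, 5 were called higher and 1 lower (54.5%, against 23.3% of all genes). Of the 11 changes 10 lay above 0, with a median of 0.244. Legumain (Lgmn), which cleaves after asparagine and activates cathepsins, had log2 values of 9.70, 9.94 and 10.61 after 4 tamoxifen injections, against 9.35, 9.36 and 9.54 after 4 control injections. All 3 tamoxifen arrays were above the other 18 arrays, which reached 9.60, and the change was 0.667 (SE 0.147, adjusted p 0.00385). Cathepsin Z (Ctsz), a carboxypeptidase abundant in macrophages, had values of 8.67, 8.37 and 9.60 after tamoxifen, against 8.23, 8.10 and 8.09 after control injections. Its change of 0.739 (SE 0.190, adjusted p 0.0105) was carried most by replicate 3, and was 0.378 (adjusted p 0.0146) without that array. Cathepsin C (Ctsc), the dipeptidyl peptidase that activates granule proteases of leukocytes, had values of 8.36, 7.72 and 9.37 after tamoxifen, against 7.88, 7.57 and 7.82 after control injections. These groups overlapped. Its change of 0.729 (SE 0.241, adjusted p 0.0363) was no longer called without tamoxifen replicate 3 (0.265, adjusted p 0.151), nor without control replicate 1, 2 or 3 (0.637 to 0.791).

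Cathepsin B (Ctsb) and cathepsin L (Ctsl), endopeptidases found in most cells, changed by less. Ctsl had values of 9.14, 8.92 and 8.87 after tamoxifen, against 8.68, 8.65 and 8.62 after control injections, a change of 0.327 (SE 0.0813, adjusted p 0.00848). It was the protease whose 3 tamoxifen arrays lay closest together among those called. Ctsb had values of 10.29, 9.95 and 10.56 after tamoxifen, against 9.85, 9.92 and 9.93 after control injections, a change of 0.368 (SE 0.107, adjusted p 0.0201). Its groups did not overlap, but replicate 2 exceeded the highest control by little, and the call was lost without tamoxifen replicate 3 (0.216, adjusted p 0.104) and without control replicate 1 (0.339, adjusted p 0.0736).

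Cathepsin F (Ctsf) moved the other way. Its log2 values were 7.37, 7.17 and 6.05 after tamoxifen, against 7.97, 7.73 and 7.59 after control injections. All 3 tamoxifen arrays lay below the other 18 arrays, whose lowest value was 7.51. The change was -0.897 (SE 0.195, adjusted p 0.00351), a 1.86-fold lower level, and without replicate 3 it was -0.509 (adjusted p 3.52e-04). Of the 5 proteases not called, Ctsa, the carboxypeptidase that also shields beta-galactosidase and neuraminidase, changed by 0.233 (adjusted p 0.0631) and the other 4 (Ctsk, Tpp1, Ctsh and Ctsd) by 0.065 to 0.244. The interval for Ctsd, the aspartic protease, ran from -0.116 to 0.246.

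Of the 9 glycosidases 2 were called, both higher, and the median change was 0.107. The share called, 22.2%, was near the 23.3% of all genes. Alpha-galactosidase A (Gla), which removes terminal galactose from globotriaosylceramide, had log2 values of 6.59, 5.47 and 6.28 after tamoxifen, against 5.07, 4.90 and 5.15 after control injections. The groups did not overlap, but tamoxifen replicate 2 lay within the range of the other 18 arrays, which reached 5.52. The change of 1.073 (SE 0.175, adjusted p 3.87e-04), or 2.10-fold, was the largest among the 36 genes, and leaving out any 1 array of these groups gave 0.84 to 1.39. The control values lay near the low end of what was tested.

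Beta-glucuronidase (Gusb), which cleaves glucuronic acid from glycosaminoglycans, had values of 7.11, 6.58 and 7.67 after tamoxifen, against 6.42, 6.53 and 6.41 after control injections. Its change was 0.662 (SE 0.165, adjusted p 0.00878), and 0.386 (adjusted p 0.0297) without replicate 3. Replicate 2 stood barely above the controls while replicate 3 was more than 1 log2 unit above them. The other 7 glycosidases changed by -0.375 to 0.281 without being called. Among them were Neu1, the sialidase (0.281, adjusted p 0.0624), Hexa, a subunit of beta-hexosaminidase (0.237, adjusted p 0.0749), and Idua, which degrades dermatan and heparan sulphate (-0.375, adjusted p 0.107). Gaa, the acid glucosidase that degrades glycogen, had values of 9.44, 8.74 and 8.28 after tamoxifen, against 9.12, 8.99 and 8.95 after control injections. Its 3 arrays lay on both sides of the controls, and its fitted change was -0.200 with an interval from -0.585 to 0.184.

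Of the 7 lipid-handling genes 3 were called higher (42.9%, against 13.9% of all genes), while the median of all 7 was -0.029. Lysosomal acid lipase (Lipa), which hydrolyses cholesteryl esters and triglycerides, had log2 values of 8.33, 7.95 and 8.13 after tamoxifen, against 7.61, 7.76 and 7.66 after control injections. The change was 0.463 (SE 0.102, adjusted p 0.00401), and it was 0.461 without replicate 3, nearly as large. Acid ceramidase (Asah1) had values of 7.72, 7.47 and 7.97 after tamoxifen, against 7.24, 7.31 and 7.37 after control injections, a change of 0.411 (SE 0.110, adjusted p 0.0129). Its groups did not overlap. The call was lost without tamoxifen replicate 3 (0.276, adjusted p 0.0666) and without control replicate 1 (0.358, adjusted p 0.0631).

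Npc2, the soluble carrier that passes cholesterol to the membrane protein Npc1, had values of 7.94, 7.53 and 8.11 after tamoxifen, against 7.54, 7.53 and 7.59 after control injections. Tamoxifen replicate 2 lay among the controls. The change of 0.305 (SE 0.106, adjusted p 0.0447) was no longer called when any array of these groups other than tamoxifen replicate 2 was left out, with values from 0.169 to 0.326. Its partner Npc1 was not called, at -0.136 with an interval from -0.468 to 0.195. Smpd1 (acid sphingomyelinase), Ppt1 (which removes palmitate from proteins) and Psap (the precursor of the saposins) changed by -0.119 to -0.029 and were not called.

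The 4 membrane proteins were not called, with changes of -0.250 to 0.245 and a median of 0.003. Lamp2, which with Lamp1 makes up much of the membrane's glycoprotein coat, had values of 9.01, 9.05 and 9.32 after tamoxifen, against 8.69, 8.97 and 8.99 after control injections. Its groups did not overlap, and its change was 0.245 (SE 0.0881, adjusted p 0.0520). The calcium channel Mcoln1 had values of 7.44, 7.44 and 7.01 after tamoxifen, against 7.66, 7.49 and 7.50 after control injections, also without overlap and in the other direction (-0.250, SE 0.0908, adjusted p 0.0538). Lamp1 (0.159, adjusted p 0.117) and Scarb2, the receptor that carries glucocerebrosidase to the lysosome (-0.154, adjusted p 0.273), lay further from the threshold.

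Of the 3 proton pump genes tested 2 were called, both higher (66.7%, against 13.9% of all genes called higher). Atp6v1h, a subunit of the cytosolic sector, had log2 values of 7.01, 7.05 and 7.63 after tamoxifen, against 6.64, 6.90 and 6.73 after control injections (0.474, SE 0.118, adjusted p 0.00860). Atp6v1a, the catalytic subunit, had values of 7.50, 7.15 and 7.78 after tamoxifen, against 7.08, 7.06 and 6.96 after control injections (0.443, SE 0.114, adjusted p 0.0103). For both genes all 3 tamoxifen arrays lay above the other 18 arrays, and without replicate 3 the call of Atp6v1a was lost (0.288, adjusted p 0.0504). The accessory protein Atp6ap1 changed by 0.211 (adjusted p 0.0575).

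A further 15 genes of the pump were listed beside those above so that the complex could be viewed as a whole. Over 17 pump genes tested, 9 were called higher and 0 lower (52.9%), against 13.9% of all genes called higher, with a median change of 0.274 against 0.014. Atp6v0a1, the membrane subunit that helps place the pump, had values of 9.36, 9.21 and 9.48 after tamoxifen, against 8.84, 8.79 and 8.68 after control injections. The change was 0.581 (SE 0.0760, adjusted p 4.89e-05) and all 3 arrays took part in it. Atp6ap2, the accessory protein also known as the prorenin receptor, changed by 0.586 (SE 0.103, adjusted p 6.91e-04), Atp6v0e by 0.491 (adjusted p 0.00146) and Atp6v0a2 by 0.393 (adjusted p 0.00129). The pump genes not called spanned -0.177 (Atp6v1g1) to 0.228 (Atp6v1g2).

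**Figure D2:**
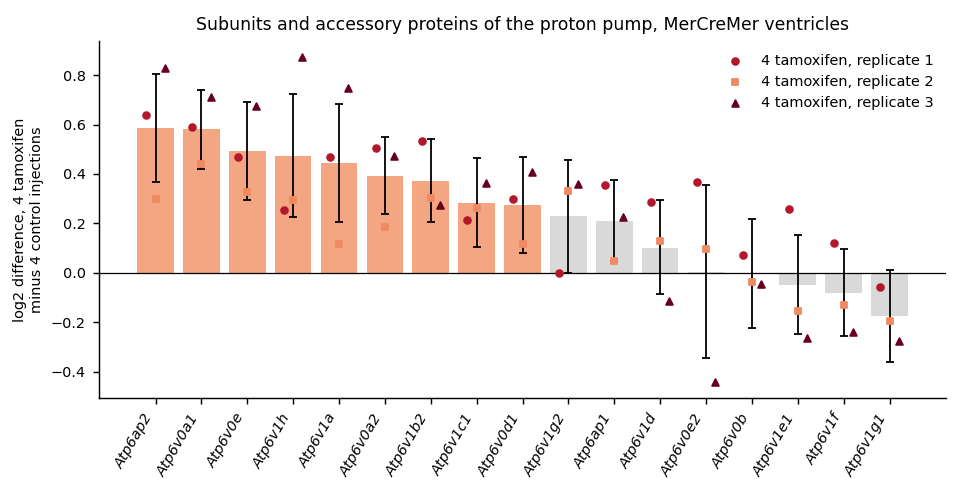
Log2 change after 4 tamoxifen against 4 control injections in MerCreMer ventricles for the 17 proton pump genes tested; bars give the fitted change (orange where called), whiskers its 95% interval and points the 3 tamoxifen arrays relative to the control mean. The 9 called genes changed by 0.274 to 0.586, and the 8 others by -0.177 to 0.228.

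Of the 2 regulators, Grn was called and Tfeb was not. Progranulin (Grn), a secreted protein that lysosomes cleave into granulins and that supports the activity of several hydrolases, had log2 values of 10.25, 9.71 and 10.20 after tamoxifen, against 9.23, 9.46 and 9.28 after control injections. All 3 arrays exceeded the other 18, whose highest value was 9.46. The change of 0.730 (SE 0.106, adjusted p 1.33e-04) had the smallest adjusted p of the 36 genes, and leaving out any 1 array gave 0.63 to 0.90. Tfeb, the transcription factor that activates lysosomal genes, had values of 6.76, 6.90 and 6.68 after tamoxifen, against 6.67, 6.90 and 6.87 after control injections. Its change was -0.038 with an interval from -0.200 to 0.124. This is the level of its RNA, and TFEB is known to be regulated by where the protein lies in the cell.

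Among 16 further genes of the TFEB family, its regulators and the nutrient-sensing machinery on the lysosome, 4 were called lower and 0 higher. The share called in either direction was near the 23.3% of all genes, while 9.41% of all genes were called lower. The TFEB relative Mitf had values of 6.61, 7.02 and 6.18 after tamoxifen, against 7.75, 7.82 and 7.67 after control injections. The groups were well apart, and the change was -1.145 (SE 0.133, adjusted p 1.66e-05). Mitf had 2 probe sets annotated to it alone, and these values are from the 1 with the higher mean. Isoforms of Mitf were not told apart. Lamtor4, part of the Ragulator scaffold, changed by -0.456 (adjusted p 0.0103), Fnip1, a partner of folliculin, by -0.449 (adjusted p 0.0187) and Rptor, the raptor subunit of mTORC1, by -0.217 (adjusted p 0.0293). Tfe3 was not called (0.104, adjusted p 0.344).

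Other lysosomal genes were read in the same way. Of 22 other hydrolases tested 6 were called higher and 1 lower (31.8%, against 23.3% of all genes). These were led by Galns (0.805, adjusted p 0.00184), which degrades keratan sulphate, and Scpep1 (0.537, adjusted p 0.0138). Naaa (0.371) and the ganglioside activator Gm2a (0.419) came next. Of 20 other membrane proteins 4 were called higher and 1 lower, a share near the 23.3% of all genes called in either direction. Those higher included the amino acid transporter Slc36a1 (0.763, adjusted p 3.56e-04), the tetraspanin Cd63 (0.811, adjusted p 0.00575) and Litaf (0.828, adjusted p 0.0250). The lower gene was Tmem192 (-0.259, adjusted p 0.0243). None of 12 genes for the sorting of enzymes to the lysosome was called, 3 of them being at an unadjusted p under 0.05, and the smallest p belonged to Gnptg (-0.185, adjusted p 0.0800). Over all 91 other lysosomal genes tested of 104 listed, including the pump, regulators and 7 genes of phagocyte lysosomes, 29 were called (31.9%, against 23.3% of all genes), with a median of 0.102. The 23 called higher are 25.3%, against 13.9% of all genes, and the 6 called lower are 6.59%, against 9.41%.

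The changes were uneven over the 3 tamoxifen arrays. The 13 genes called higher lay at a median of 0.49, 0.23 and 0.88 above the control mean on replicates 1, 2 and 3. These genes were chosen by their values on the same arrays. All 36 genes tested had medians of 0.34, 0.05 and 0.23, and the 91 other lysosomal genes 0.27, 0.08 and 0.05. On the same arrays the 17 macrophage markers tested, of 20 listed, had medians of 0.93, 0.31 and 1.80. Of those markers 15 were called higher (88.2%, against 13.9% of all genes) and 0 lower. Their summed level was 10.92 to 12.25 after tamoxifen, against 10.49 to 10.53 after control injections. All 20 reached 5 on at least 1 array. The 7 genes of phagocyte lysosomes tested had medians of 0.79, 0.22 and 2.04. Of these 6 were called higher (85.7%, against 13.9% of all genes), among them Gpnmb (2.454), Cd68 (1.623), Laptm5 (1.013) and Lyz2 (0.983). Gpnmb reached 5 only on the 3 arrays of this tamoxifen group and lay at 3.78 to 4.50 on the other 18. It was tested only because it was high there, so its call is no separate support. The macrophage marker Cd14 reached 5 on 1 array outside that group (5.04) and likewise passed the limit only through it. In whole ventricle more cells of a type and more RNA per cell cannot be told apart. The part of macrophages in the lysosomal changes was not tested.

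**Figure D3:**
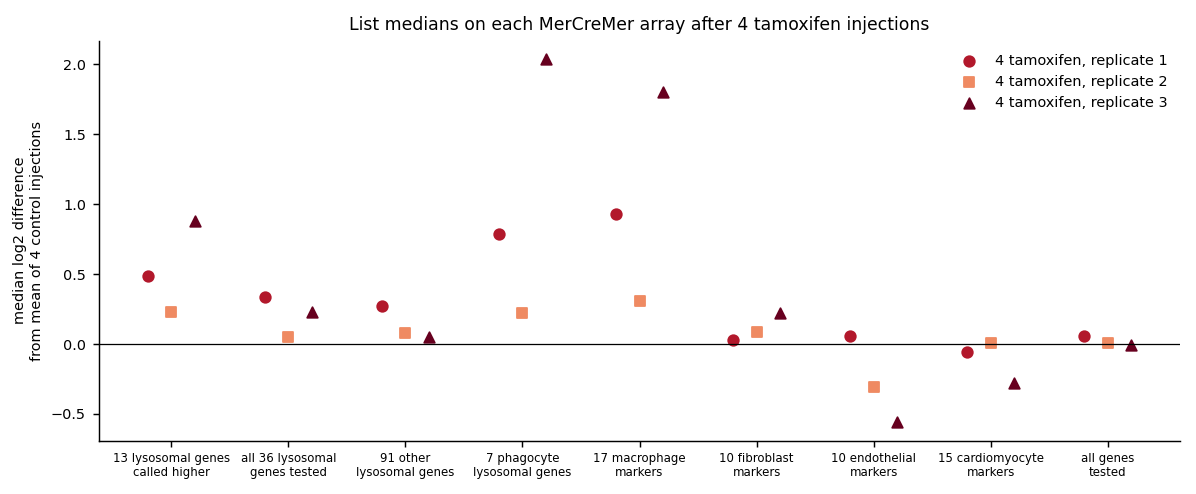
Median log2 difference from the control mean for gene lists on each of the 3 MerCreMer arrays after 4 tamoxifen injections. Macrophage markers and phagocyte lysosomal genes were highest on replicate 3 (1.80 and 2.04) and lowest on replicate 2 (0.31 and 0.22). The 13 lysosomal genes called higher, chosen by their values on these arrays, had the same order (0.88 and 0.23). All 36 genes tested were highest on replicate 1 (0.34), as were the 91 other lysosomal genes (0.27).

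None of the other marker lists had a gene called higher, but no neutrophil or lymphocyte marker passed the limit for testing. All 8 neutrophil markers and 8 of 9 lymphocyte markers on the array lay below 5 on all arrays. Of 6 osteoclast markers 4 lay below 5 on all arrays and the 2 tested were not called. Of 10 fibroblast markers 1 was called lower, a share near the 9.41% of all genes. The medians of these markers were 0.03, 0.09 and 0.22 on replicates 1, 2 and 3. Their summed levels were 12.69 to 13.54 after tamoxifen, against 12.63 to 12.79 after control injections. The 10 endothelial markers had 3 called lower (30.0%, against 9.41% of all genes) and medians of 0.06, -0.31 and -0.56 on replicates 1, 2 and 3. The 15 cardiomyocyte markers had 4 called lower (26.7%, against 9.41% of all genes) and medians of -0.06, 0.01 and -0.28. Their summed levels were 15.69 to 16.09 after tamoxifen, against 16.12 to 16.13 after control injections.

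The genes did not share 1 pattern over the arrays. Relative to the control mean, 18 of the 36 lay above it on all 3 tamoxifen arrays and 2, Ctsf and Mcoln1, lay below it on all 3. Another 9 (Ctsd, Tpp1, Glb1, Idua, Gaa, Smpd1, Ppt1, Psap and Lamp1) lay above it on replicate 1 and below it on replicate 3, and Ctsh and Naglu did the opposite. The median shift of all 36 was 0.34, 0.05 and 0.23 on replicates 1, 2 and 3, and that of the 7 lipid-handling genes was 0.38, 0.09 and -0.29. Smpd1, for example, was at 10.41, 9.87 and 9.47 after tamoxifen, against 10.08, 10.09 and 9.91 after control injections. Counts of calls followed this spread. Without replicate 2, 19 genes were called higher and 2 lower, with a background of 33.8% of all genes in either direction. Without replicate 1, 12 were called higher and 6 lower (Ctsf, Idua, Gaa, Smpd1, Psap and Mcoln1; background 29.9%), and without replicate 3, 9 were called higher and 1 lower (background 16.5%).

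Replicate 2 was also the 1 tamoxifen array of the smaller set of MerCreMer arrays. Within the larger set, tamoxifen replicates 1 and 3 against control replicates 2 and 3, 6 genes were called (Ctsc, Ctsz, Gla, Gusb, Atp6v1a and Grn, all higher; background 5.75%), and with the array set as a covariate 16 were called (background 23.8%). In the larger set all male arrays were tamoxifen arrays, so the sex term was estimated from tamoxifen arrays alone. With female arrays alone 5 were called (Ctsl, Lgmn, Gla and Grn higher, Ctsf lower; background 13.2%). Gla and Grn were called higher in each of these 3 fits.

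After 1 tamoxifen injection in MerCreMer mice none of the 36 genes was called by limma, against a background of 0.00878% of all genes (1 gene). At an unadjusted p under 0.05 there were 3, all higher, namely Ctsh (0.422, SE 0.163), Glb1 (0.311, SE 0.121) and Ctsa (0.210, SE 0.0880). The median change was 0.050, against 0.017 over all genes. Tamoxifen and control arrays did not overlap for 6 of the 36 (16.7%), all higher, against a background of 10.4%. Ctsh, an aminopeptidase, had log2 values of 7.20, 7.17 and 7.48 after 1 tamoxifen injection, against 6.95, 6.58 and 7.06 after 1 control injection. Grn was at 9.40, 9.41 and 9.37 after 1 tamoxifen injection, against 9.40, 9.44 and 9.46 after 1 control injection. Gla was at 5.17, 5.52 and 5.21 after 1 tamoxifen injection, against 5.27, 5.05 and 5.20 after 1 control injection. Both genes overlapped between the groups. The 17 macrophage markers had a median change of 0.190 with 0 called.

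In wild-type mice 4 tamoxifen injections also gave no call among the 36 genes, against a background of 0% of all genes (limma; 295 genes were at an unadjusted p under 0.05). Of the 36 genes 3 were at an unadjusted p under 0.05, all higher: Ctsk (0.382, SE 0.104), Lipa (0.242, SE 0.0893) and Ctsl (0.175, SE 0.0708). These p-values rest on the spread shared with the more variable MerCreMer arrays given 4 tamoxifen injections. With group weights 6 genes were at that level, with array weights 11 and with only the arrays compared 7, none of them called. The changes were small but leaned 1 way, with 31 of 36 (86.1%) above 0, against 53.4% of all genes, and a median of 0.080 against 0.007. On single tamoxifen arrays the median shift from the control mean was 0.05 to 0.07, with 24 to 30 genes above 0. Single control arrays ran from -0.04 to 0.07, with 14 to 28 above 0, and control replicate 3 (0.07) leaned as far as the tamoxifen arrays. Groups did not overlap for 3 (Ctsk, Ctsz and Lipa; 8.33%), against a background of 3.42%. Lipa had values of 7.43, 7.51 and 7.44 after tamoxifen, against 7.08 to 7.33 with a median of 7.22 on the 6 control arrays. Ctsk, the collagen-degrading cathepsin, had values of 5.31, 5.26 and 5.16 after tamoxifen, against 4.68 to 5.01 with a median of 4.85, all near the limit for testing. The 17 macrophage markers had a median change of 0.111 in this comparison, with summed levels of 10.62 to 10.80 after tamoxifen, against 10.46 to 10.78 after control injections. The 10 fibroblast markers were all above 0, with a median of 0.264, 0 called and 2 at an unadjusted p under 0.05, and had summed levels of 12.66 to 12.81 after tamoxifen, against 12.40 to 12.71 after control injections. The part of either cell type was not tested.

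**Figure D4:**
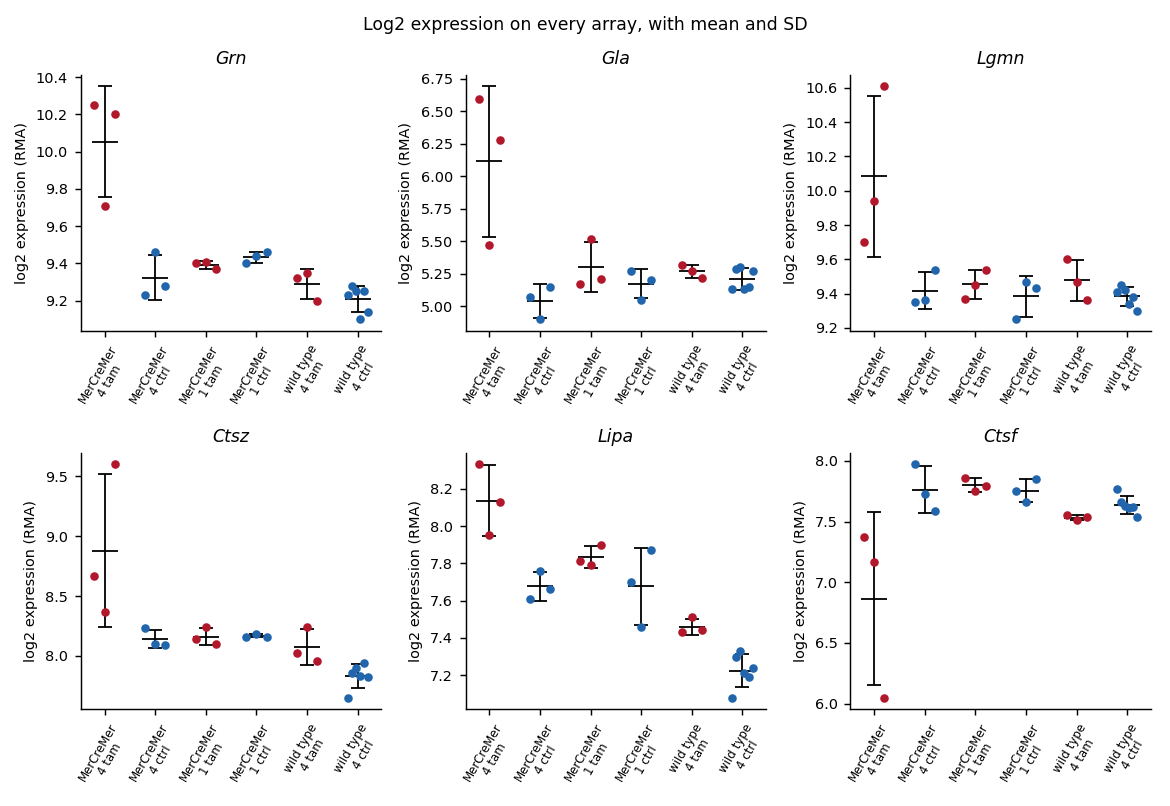
Log2 expression of 6 lysosomal genes on every array in the 6 groups, with group mean and SD (black); red points are tamoxifen and blue points control injections, and each panel has its own scale that does not start at 0. Grn, Lgmn, Ctsz and Lipa were highest and Ctsf lowest on the 3 MerCreMer arrays given 4 tamoxifen injections.

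The transgene itself was examined by setting MerCreMer controls against wild-type controls, each given 4 control injections. Lipa was the 1 gene of the 36 called, against a background of 0.676% of all genes (77 genes). It had log2 values of 7.61, 7.76 and 7.66 in MerCreMer mice, against 7.08 to 7.33 in wild-type mice, a difference of 0.457 (SE 0.0893, adjusted p 0.0224). The groups did not overlap, nor did those of Ctsz, Npc2 and Mcoln1, 4 of 36 (11.1%), all higher in MerCreMer, against a background of 12.5%. All wild-type arrays and 1 of the 3 MerCreMer control arrays belonged to 1 array set, and with that set as a covariate the Lipa difference was 0.386 (adjusted p 0.178). Leaving out MerCreMer control replicate 1, 2 or 3 or wild-type control replicate 5 also ended the call (0.409 to 0.508, adjusted p 0.0567 to 0.183). The background depended on the spread used. Lipa was again the 1 gene called with group weights (background 5.56%) and with only the arrays compared (2.46%). With array weights Ctsz was called too (10.3%). The MerCreMer control values of Lipa also lay above those of wild-type mice given tamoxifen, whose highest value was 7.51. The macrophage markers differed by a median of -0.054 between the same groups, with 0 called.

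Whether the response to tamoxifen depended on the transgene was tested as the difference between the 2 tamoxifen effects. Gla and Grn were called, both more strongly raised in MerCreMer than in wild-type mice, 2 of 36 (5.56%) against a background of 7.98%. In the higher direction alone the background was 4.45%. The difference was 0.993 for Gla (SE 0.233, adjusted p 0.0141) and 0.642 for Grn (SE 0.141, adjusted p 0.00958), and each stayed called when any 1 array was left out. The call of Gla was lost with array weights (0.543, adjusted p 0.0740), and those of both genes with female arrays alone (adjusted p 0.175 for Gla and 0.204 for Grn) and with the replicate block (0.428 and 0.328). In the block fit wild-type control replicates 4 to 6 had no same-numbered arrays and so added nothing to this difference. Replicates 1 to 3 of that group were all male. That fit is therefore a weak check of comparisons with wild-type mice. Without tamoxifen replicate 2 of the MerCreMer group 15 genes were called, 13 higher and 2 lower (background 19.7%), and without replicate 1 there were 7, 4 higher and 3 lower (background 15.1%). Ctsf came next at -0.821 (SE 0.259, adjusted p 0.0584). It was called lower with group weights, with array weights, with the second quantile normalisation and with a stricter filter on low values. For the other 12 of the 14 genes called in MerCreMer mice, a difference from the wild-type response was not shown in the main fit. The 17 macrophage markers, 6 of them called, had a median difference of 0.886 in the same test.

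The difference between the effects of 4 and of 1 injection in MerCreMer mice gave the same 2 genes, 5.56% against a background of 5.78% (2.78% in the higher direction alone). It was 0.946 for Gla (SE 0.248, adjusted p 0.0317) and 0.771 for Grn (SE 0.150, adjusted p 0.00518). Grn stayed called when any 1 array was left out. Gla was called in 4 of the 12 fits without 1 array, with values from 0.72 to 1.26; the call was lost without replicate 1, 2 or 3 of the 1 control group, replicate 1 or 3 of the 1 tamoxifen group, replicate 1 or 2 of the 4 control group, or replicate 3 of the 4 tamoxifen group. Without replicate 2 of the 4 tamoxifen group 13 genes were called (background 17.2%), and without replicate 1 there were 8 (background 12.1%). Ctsf was at -0.946 (SE 0.276, adjusted p 0.0511). It was called lower with group or array weights, the second quantile normalisation, a stricter filter on low values or another prior. The macrophage markers, 2 of them called, had a median difference of 0.808. These comparisons share the MerCreMer arrays given 4 injections, and the transgene comparison shares control arrays with 2 of them.

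**Figure D5:**
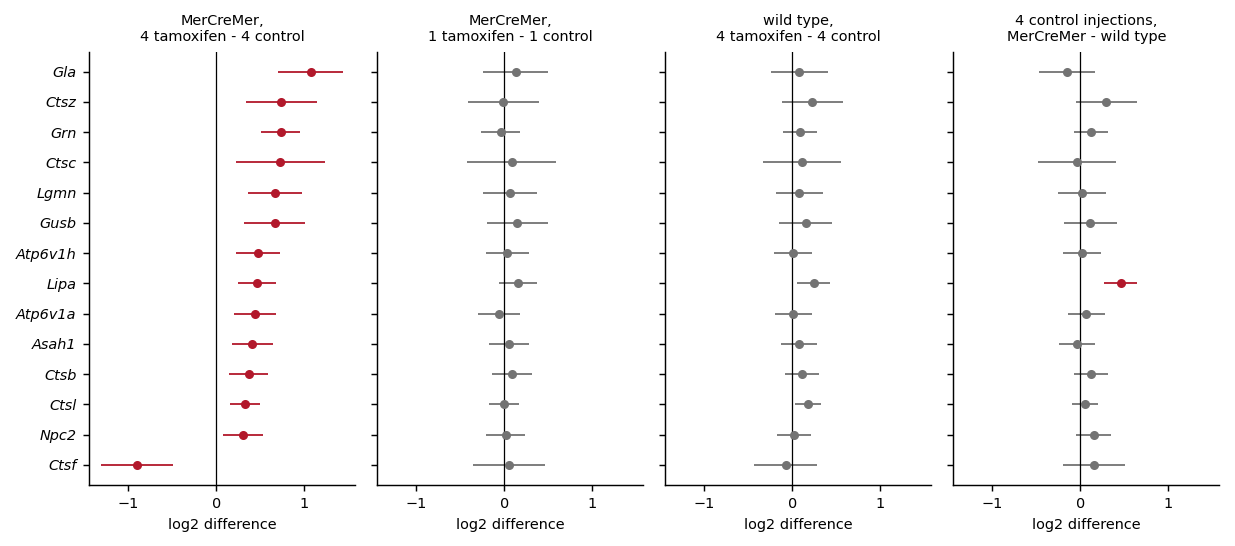
Log2 difference and 95% interval in 4 comparisons for the 14 lysosomal genes called after 4 tamoxifen injections in MerCreMer ventricles (red, called; grey, not called). Outside the first comparison Lipa alone was called, at 0.457 between MerCreMer and wild-type mice after control injections; the comparisons share control arrays.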

How the data were processed

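The deposited values are log2 expression values of 34760 probe sets on 21 arrays, made by the authors with RMA per the submitters' processing notes, which give no version. RMA corrects background, normalises arrays by quantiles and summarises probes, which also removes any change common to nearly every gene. Array medians were 4.57 to 4.72, and the values were used as deposited. The number of arrays limits the precision.

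Probe sets were named through the platform annotation, which gave 1 gene for 21640, several for 1321 and no entry for 11799. For each gene the single-gene probe set with the highest mean was kept, and 99.6% of identifiers matched the RefSeq table of GRCm38.p6. Genes at a log2 value of at least 5 on at least 3 arrays were tested. With limma 3.58.1 in R 4.3.3, 1 linear model of group means and sex took in all 21 arrays (14 residual and 3.98 prior degrees of freedom), with Benjamini-Hochberg adjustment over 11384 genes and calls at an adjusted p under 0.05. It was tested on simulated data. Groups, injections and sex came from the labels.

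The 37 genes, the other lists and the tests were chosen with earlier results of these data known. Values on every array are given for genes called, and for Tfeb and genes chosen after their values were seen (Lamp2, Mcoln1, Gaa, Smpd1 and Ctsh). Up to 4 called genes of each other list, by adjusted p, are named. Summed levels are log2 of summed linear values. Alternatives were no sex covariate, only the arrays compared, group or array weights, female arrays, a replicate block, a second quantile normalisation, other filters, probe set means, another prior, and each array left out. The array set as covariate and the fit within the larger set were added after seeing the data. Protein sequences were not used here.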

Additional observations from a re-analysis of the deposited data

Results flagged for a closer look

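One array stood apart from its group among the 37 genes, each examined in the 6 wild-type control arrays. Asah1 was at 7.17 on wild-type control replicate 6, where the nearest of the other 5 arrays was at 7.34, a gap of 0.626 of the group's range. Chance gives such a value in about 1 of 20 groups, and 1 of 37 genes showed it.

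The effect of 4 tamoxifen injections differed between MerCreMer and wild-type mice by 0.99 for Gla and by 0.64 for Grn on the log2 scale, each tested as an interaction. It differed between 4 and 1 injections in MerCreMer mice by 0.95 for Gla and by 0.77 for Grn. The 4 values share the MerCreMer arrays given 4 injections and are not independent of each other.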

How the results depend on the processing

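The count of 14 lysosomal genes called after 4 tamoxifen injections in MerCreMer mice was 7 with group weights (8.42% of all genes called), 7 with array weights (13.9%), 5 with female arrays (13.2%), 6 within the larger array set (5.75%), 10 to 21 with 1 array left out and 0 with only the arrays compared (0.158%). In the last fit limma had 9 genes at an unadjusted p under 0.05. For the 14 genes, 131 of 181 values under the listed alternatives and 70 of 84 with 1 array left out stayed past the threshold, and 0 changed sign. The 181 include the fit on probe set means, which could not change the values of genes with 1 probe set each and is no check of these 14. With the replicate number as a block the count was 12 (14.5%). Correlations of same-numbered arrays were 0.112, -0.0366 and 0.0543 for MerCreMer mice given 4 injections, 0.277, 0.0696 and 0.249 for those given 1, and 0.276, -0.146 and -0.201 for wild-type mice. They were not all over 0.1 in any of these pairs of groups, so that the arrays were taken to share only a number. Wild-type control replicates 4 to 6 had no same-numbered arrays, so they added nothing to comparisons with that group in the block fit. For MerCreMer against wild-type controls the count of 1 (0.676% of all genes) was 2 with array weights (5.56% of the 36 genes, against 10.3% of all genes) and 0 with female arrays, with the replicate block or with the array set as covariate, and 0 to 1 with 1 array left out. For the difference of tamoxifen effects between genotypes the count of 2 was 0 with female arrays and 0 with the block, and 2 to 15 with 1 array left out. With Ctsf added it was 3 with group weights (4.54% of all genes) and with the second quantile normalisation (8.65%). For the difference between 4 and 1 injections the count of 2 was 1 with the block, 1 with no filter, 0 with female arrays, 0 with only the arrays compared, 0 within the larger set, and 1 to 13 with 1 array left out. With Ctsf added that count was 3 with group weights (3.76%), the second quantile normalisation (6.16%) and another prior (6.03%). No call appeared after 1 injection or in wild-type mice under any alternative run. The cause of these differences was not tested, apart from fewer arrays in the fits that leave some out.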
